A study of Mus musculus with 4 samples.

Results

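The collagen genes were examined in hippocampal RNA-seq of wild-type and Lsd1 knock-in mice. They were taken as the protein-coding genes whose symbol is Col followed by digits, the letter a and digits, and were matched by Ensembl gene ID. Of the 26328 genes listed in at least 1 sample, 44 met this rule, and each of the 44 was listed in at least 1 sample. Col4a3bp, whose symbol goes on after the digits and which encodes a ceramide transfer protein, was left out. The samples were hippocampi of male C57BL/6 mice, 2 WT and 2 Lsd1 KI. In the KI line (Lsd1 SA/SA) the serine of the histone demethylase LSD1 that PKCα phosphorylates is replaced by alanine on both alleles, in every cell, and the WT mice were littermates. The methods of the study give an age of 8 to 15 weeks for mice of the behavioural tests, and no separate age is given for the mice of the RNA samples. No source says whether a sample was 1 mouse or a pool, so p-values measure the spread between these samples.

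Collagens are extracellular matrix proteins whose chains wind around one another into a long helix rich in glycine and proline. Some form fibrils, some form the sheet of the basement membrane around blood vessels, some make beaded filaments near cells, and others decorate fibrils or span the plasma membrane. In the brain they are known mainly from vessels, meninges and the choroid plexus, while a few, among them Col25a1 and Col19a1, are also made by neurons. Chains encoded by separate genes often have to be made together, because one trimer is built from different chains.

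The values were RPKM, read numbers divided by exon length in kb and by the mapped reads of the sample. Levels can so be compared between samples, while a comparison between genes depends on the exon length used. The depth was worked out from whole-read steps. WT replicate 2 was the shallowest sample, at about 8830000 mapped reads, and the other samples had between 13400000 and 14900000. At these depths 1 read on a gene of 5 kb was worth between 0.0134 and 0.0227 RPKM. Kdm1a, the gene that encodes LSD1, had 11.6 and 11.2 RPKM in WT replicates 1 and 2 and 11 and 11.2 RPKM in KI replicates 1 and 2. A gene level cannot show the amino acid replacement, so these values do not check the labels. KI replicate 1 stood apart in markers of the choroid plexus, whose summed RPKM was 63.0 there against 15.4 to 21.1 in the other 3 samples. It was not apart in these markers alone. Its sum was also the highest for oligodendrocyte markers (1066 against 806 to 968 RPKM) and for microglia, neocortex and thalamus markers. For fibroblast, mural and hippocampal markers its sum was the lowest. Values without KI replicate 1 are given after the collagen classes.

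The hippocampal collagen transcripts were led by a few genes, and most of the family was near or under 1 RPKM. A mean of 1 RPKM or more over the 4 samples was reached by 16 of the 44 genes. The filter for the test, at least 0.5 RPKM in at least 2 samples, was passed by 28, and 16 were not tested. Col22a1 and Col1a2 passed it through their KI values, with both WT values under 0.5 RPKM, and no collagen gene passed it through WT alone. Just inside the filter lay Col1a2, with 0.485, 0.485, 0.556 and 0.524 RPKM in WT replicates 1 and 2 and KI replicates 1 and 2. Just outside lay Col8a2, a chain of short-chain networks, with 0.548, 0.454, 0.387 and 0.298 RPKM in the same order, which is the order of all values listed by sample here. The summed RPKM of all 44 genes was 82.7, 85.1, 98.3 and 89.7. Both KI sums lay above both WT sums (WT 83.9 ± 1.68, KI 94.0 ± 6.07, SD, n = 2 each), with an exact two-sided permutation p of 0.33, the smallest that 2 against 2 samples can give. The higher KI sum was that of KI replicate 1, the sample with the high choroid plexus markers, and a link between these was not tested.

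**Figure D1:**
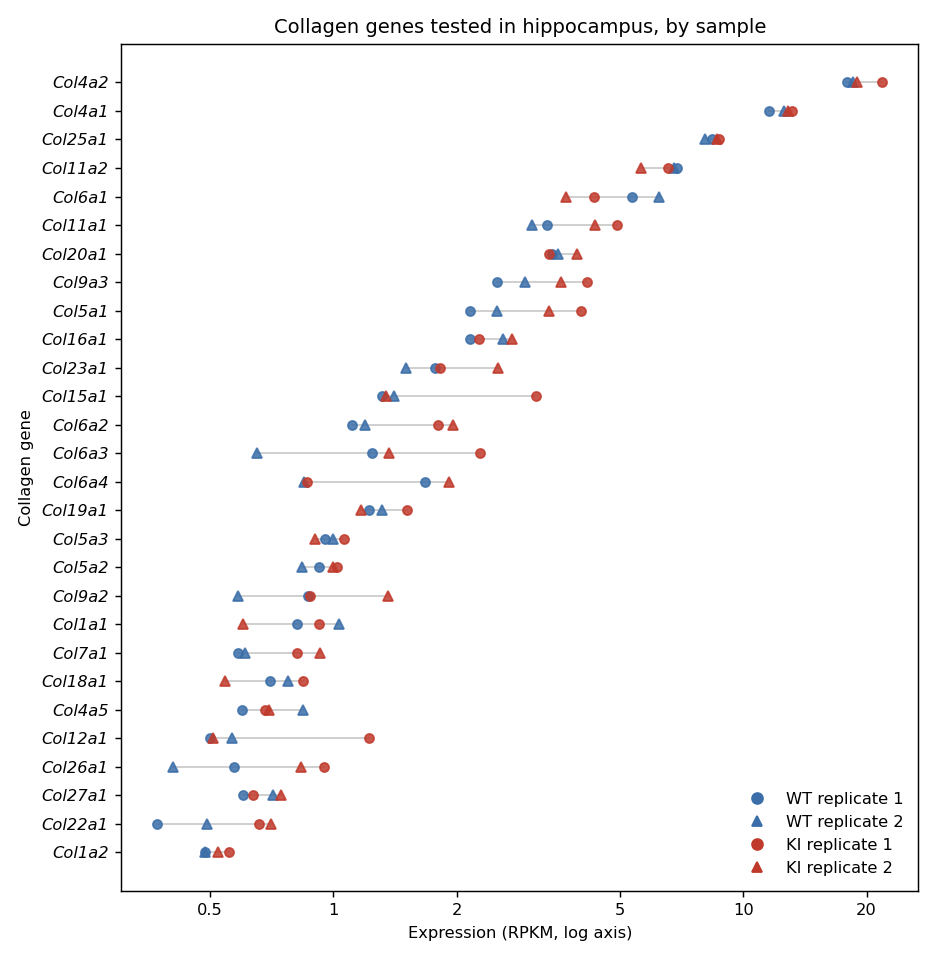
RPKM on a log axis for the 28 collagen genes tested, with 1 point per sample (2 WT in blue, 2 KI in red), a line over each gene's range and genes ordered by mean level. Col4a2 and Col4a1 lead at 11.6 to 21.8 RPKM, and the red points lie to the left of the blue points for Col6a1 and Col11a2 and mostly to the right elsewhere.

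In the comparison of KI with WT, 0 of the 28 collagen genes tested passed an adjusted p of 0.1 with a change of at least 1.2-fold in limma with Benjamini-Hochberg adjustment over 18436 genes, and the share of all genes that passed was 0%. The smallest adjusted p was 0.388 among the collagen genes, for Col11a1, and 0.197 among all genes. At an unadjusted limma p under 0.05, 4 of the 28 were higher in KI (Col11a1, Col5a1, Col6a2 and Col9a3), against 6.30% of all genes tested. Col6a1 was the 1 gene lower at that p, against 3.33% of all genes. None of these is a call after adjustment. The log2 fold changes, taken on log2(RPKM + 1) and therefore smaller than the true ratio for low genes, had a median of 0.10 over the 28 collagen genes and of 0.01 over all genes tested.

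The 2 KI samples both exceeded the 2 WT samples in 15 of the 28 tested collagen genes, against 24.0% of all genes tested, and both lay under them in 2, against 18.1%. These 28 include the 2 genes that passed the filter through KI. Over all 44 members with no filter, KI exceeded WT in this way in 19, against 21.2% of all genes listed, and lay under it in 5, against 15.9%, while the groups overlapped in the other 20. In a bulk tissue, fewer cells of a type and less RNA per cell cannot be told apart in any of these values.

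**Figure D2:**
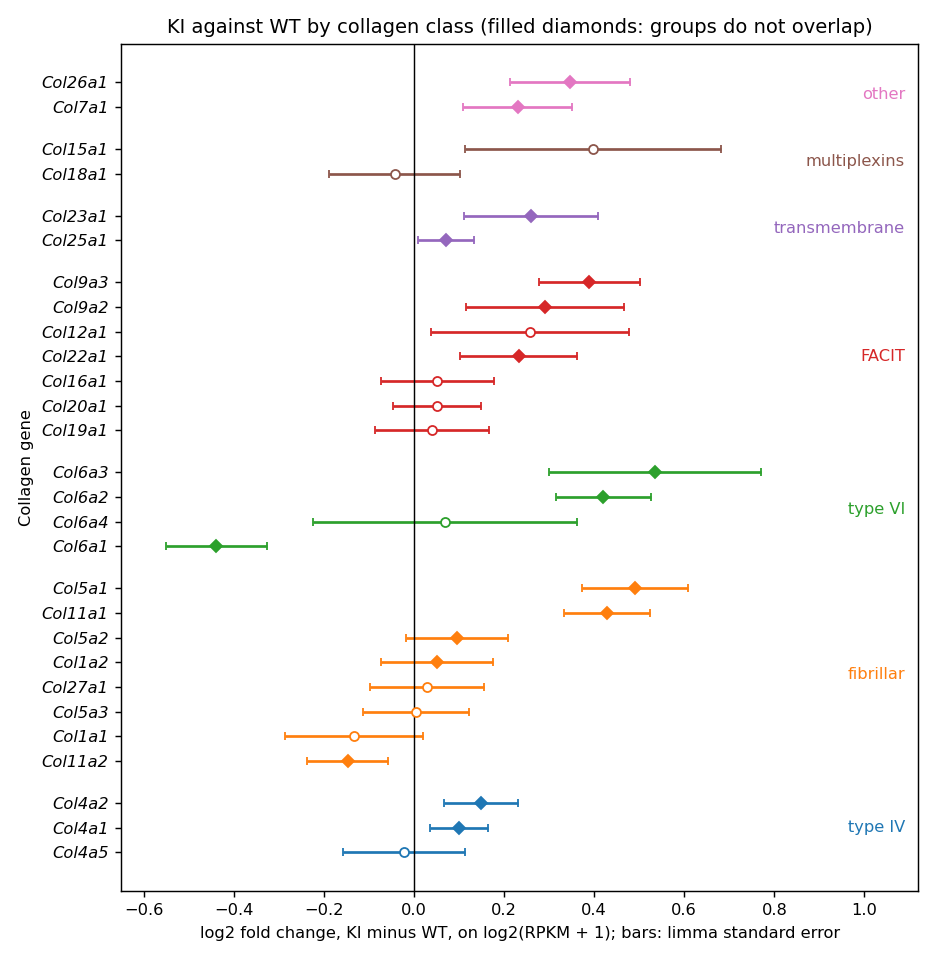
log2 fold change (KI minus WT, on log2(RPKM + 1)) for the 28 collagen genes tested, with bars of 1 limma standard error, n = 2 samples per group, grouped by collagen class. Filled diamonds are genes whose groups do not overlap and open circles the others. Values run from -0.44 for Col6a1 to 0.53 for Col6a3, and none passed an adjusted p of 0.1.

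The type IV genes, which encode the chains of the basement membrane network, held 36.5% to 38.0% of collagen RPKM in each sample. Col4a2 had 17.9 and 18.6 RPKM in WT and 21.8 and 18.9 RPKM in KI. Col4a1, whose chain joins that of Col4a2 in the trimer of vascular basement membranes, had 11.6 and 12.6 RPKM in WT and 13.1 and 12.9 RPKM in KI. For both genes the KI values lay just above the WT values, with log2 fold changes of 0.15 (SE 0.08, adjusted p = 0.611 in limma) and 0.10 (adjusted p = 0.661 in limma). The genes lie head to head on chromosome 8, where their first exons overlap by 22 bp on opposite strands. The ratio of Col4a2 to Col4a1 within a sample was 1.55 and 1.48 in WT and 1.66 and 1.47 in KI, so the groups overlapped (exact permutation p = 1, the first of 6 chain ratios tested). The other type IV genes were low. Col4a5, on chromosome X, was at most 0.843 RPKM and its groups overlapped, and Col4a3, Col4a4 and Col4a6 were not tested. Col4a6 lay lower in both KI samples, at 0.183 and 0.151 RPKM against 0.243 and 0.213 RPKM in WT. This order rests on few reads, 26 and 15 in WT and 21 and 18 in KI.

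The type VI genes showed opposite orders between partner chains. The chains of Col6a1, Col6a2 and Col6a3 assemble together into beaded microfilaments around cells. Col6a1 (ENSMUSG00000001119, chromosome 10, 76708792 to 76726168 in GRCm38) had 5.34 and 6.23 RPKM in WT and 4.32 and 3.70 RPKM in KI. Both KI values lay below both WT values, a ratio of means of 0.692 (log2 fold change -0.44, SE 0.11, unadjusted p = 0.0130, adjusted p = 0.435, limma). Col6a2 (chromosome 10, 76595762 to 76623630) had 1.11 and 1.2 RPKM in WT and 1.80 and 1.96 RPKM in KI. Here both KI values lay above, a ratio of means of 1.63 (log2 fold change 0.42, SE 0.11, unadjusted p = 0.0122, adjusted p = 0.430, limma). Col6a3 (chromosome 1, 90765923 to 90843971) had 1.24 and 0.653 RPKM in WT and 2.28 and 1.37 RPKM in KI. Its KI values were also above, by a ratio of means of 1.93 (log2 fold change 0.53, SE 0.24, adjusted p = 0.552, limma). However, WT replicate 1 was near KI replicate 2, and KI replicate 1 was the highest.

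The reads behind these values were 314, 241, 272 and 242 for Col6a1, 124, 88, 216 and 244 for Col6a2 and 199, 69, 392 and 245 for Col6a3. Within a sample, the ratio of Col6a2 to Col6a1 was 0.208 and 0.192 in WT and 0.418 and 0.530 in KI, 2.36-fold higher in KI. The ratio of Col6a3 to Col6a1 was 0.232 and 0.105 in WT and 0.528 and 0.371 in KI, 2.84-fold higher. Neither ratio depends on how a sample is scaled, and for both the groups did not overlap, with an exact permutation p of 0.33 each, and 0.67 after Benjamini-Hochberg adjustment over the 6 ratios. The opposite orders cancelled in the sum of the type VI genes, which was 9.78 and 9.35 RPKM in WT and 9.67 and 9.24 RPKM in KI (exact permutation p = 0.667). Col6a4, an alternative partner chain, had 1.67 and 0.850 RPKM in WT and 0.864 and 1.91 RPKM in KI. It spread as widely within each group as between them, and Col6a5 and Col6a6 were under 0.4 RPKM with overlapping groups.

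**Figure D3:**
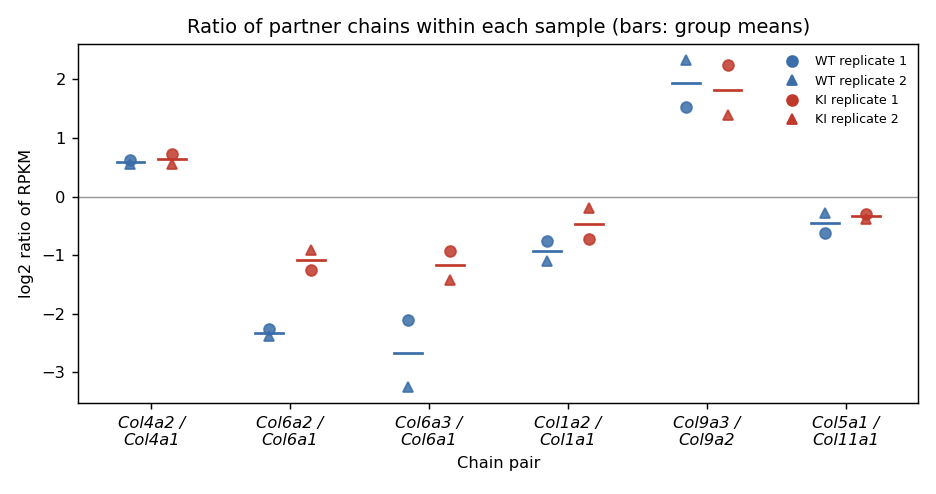
log2 ratio of the RPKM of partner chains within each sample, with 1 point per sample (2 WT, 2 KI) and bars at group means, for 6 chain pairs. The KI points of Col6a2/Col6a1 (ratios of 0.418 and 0.530) and of Col6a3/Col6a1 (ratios of 0.371 and 0.528) lie above both WT points, while those of Col4a2/Col4a1 overlap.

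Because these partner chains stood in opposite orders, the sequences just upstream of their start sites are shown, beside those of the fibrillar genes Col5a1 and Col11a1 whose KI values were both higher. The strand is the gene's own, the build is GRCm38.p6, the sequences are from RefSeq, and capitals mark the motif letters found on either strand. The motifs searched were the CCAAT box (CCAAT), the GC box (GGGCGG), the E-box (CACGTG) and the TATA box (TATAAA), and the marked matches do not overlap one another.
Col6a1, chr10:76726169-76726294, minus strand: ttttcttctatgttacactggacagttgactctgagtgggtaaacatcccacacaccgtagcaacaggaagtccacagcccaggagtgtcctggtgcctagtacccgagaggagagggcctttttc
Col6a2, chr10:76623631-76623880, minus strand: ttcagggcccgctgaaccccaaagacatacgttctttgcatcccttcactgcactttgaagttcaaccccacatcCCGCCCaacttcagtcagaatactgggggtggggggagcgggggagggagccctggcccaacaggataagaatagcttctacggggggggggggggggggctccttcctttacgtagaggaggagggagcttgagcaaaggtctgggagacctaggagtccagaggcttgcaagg
Col6a3, chr1:90843972-90844221, minus strand: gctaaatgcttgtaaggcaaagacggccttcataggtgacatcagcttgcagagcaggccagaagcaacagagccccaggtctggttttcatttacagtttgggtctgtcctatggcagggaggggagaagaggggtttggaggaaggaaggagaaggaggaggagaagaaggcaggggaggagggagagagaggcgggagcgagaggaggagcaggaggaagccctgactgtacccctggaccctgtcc
Col5a1, chr2:27886175-27886424, plus strand: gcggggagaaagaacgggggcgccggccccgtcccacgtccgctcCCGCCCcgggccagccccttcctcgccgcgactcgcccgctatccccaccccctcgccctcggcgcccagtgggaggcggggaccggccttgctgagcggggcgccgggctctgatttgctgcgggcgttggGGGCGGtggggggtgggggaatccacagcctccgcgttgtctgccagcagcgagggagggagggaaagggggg
Col11a1, chr3:114030290-114030539, plus strand: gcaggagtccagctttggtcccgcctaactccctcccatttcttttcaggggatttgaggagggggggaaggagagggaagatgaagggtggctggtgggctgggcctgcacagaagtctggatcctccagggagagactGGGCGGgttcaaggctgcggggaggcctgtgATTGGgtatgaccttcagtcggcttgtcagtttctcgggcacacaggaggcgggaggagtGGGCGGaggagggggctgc

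The Col6a1 stretch is shorter, 126 bases, because the rest of its window lies in an annotated exon. None of the motifs was in these letters of Col6a1 and Col6a3, while Col6a2 held 1 GC box, Col5a1 held 2, and Col11a1 held 2 with 1 CCAAT box. Col6a2 has another RefSeq window, chr10:76623405-76623654, which held 3 GC boxes. It is not shown, because only 24 of its bases lie before annotated exons, and these held no motif. Col6a2 and Col6a1 lie on the same strand, 85.2 kb apart, and share no upstream window. RefSeq windows of 250 bases were matched for 35 of the 44 collagen genes, 38 windows in all. A GC box was in 57.9% of these windows and in 32.7% of the 32851 windows of all genes, a CCAAT box in 34.2% and 33.9%, and a TATA box in 13.2% and 12.4%. No collagen window held the E-box letters, which 6.02% of all windows held, and the median GC content was 59.0% against 52.4%. These matches describe letters and say nothing of binding.

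Of the fibrillar genes, Col11a2 was the most abundant and lay slightly lower in KI, with 6.90 and 6.78 RPKM in WT and 6.56 and 5.63 RPKM in KI (log2 fold change -0.15, adjusted p = 0.644 in limma). Col11a1 and Col5a1, whose chains nucleate thin fibrils and can share trimers, both lay higher. Col11a1 (chromosome 3, 114030540 to 114220718) had 3.32 and 3.06 RPKM in WT and 4.93 and 4.36 RPKM in KI. The groups were well apart, with a ratio of means of 1.46 (log2 fold change 0.43, SE 0.09, unadjusted p = 0.00768, adjusted p = 0.388, limma). Col5a1 (chromosome 2, 27886425 to 28039514) had 2.16 and 2.51 RPKM in WT and 4.02 and 3.36 RPKM in KI. Both KI values were again above, with a ratio of 1.58 (log2 fold change 0.49, SE 0.12, unadjusted p = 0.0105, adjusted p = 0.409, limma). The reads were 246 and 188 for the WT samples against 491 and 426 for the KI samples. The ratio of Col5a1 to Col11a1 within a sample was 0.651 and 0.819 in WT and 0.815 and 0.770 in KI, and these ratios overlapped (exact permutation p = 1).

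The classical fibril genes were low, and their orders differed. Col1a1, of skin and bone fibrils, had 0.818 and 1.04 RPKM in WT and 0.922 and 0.601 RPKM in KI, with overlapping groups. Col1a2, its partner, lay slightly higher in both KI samples, at 0.485 RPKM in each WT sample and 0.556 and 0.524 RPKM in KI (log2 fold change 0.05). The ratio of Col1a2 to Col1a1 was 0.593 and 0.469 in WT and 0.603 and 0.871 in KI, 1.37-fold higher in KI (exact permutation p = 0.33). With 1 RPKM added to both chains the groups of this ratio overlapped, with a log2 difference of 0.18 in place of 0.46 (exact permutation p = 0.67). Col3a1 was not tested and lay lower in KI, at 0.166 and 0.128 RPKM against 0.205 and 0.284 RPKM in WT, an order that rests on few reads. Col5a2, the partner of Col5a1 in fibrils, had 0.925 and 0.839 RPKM in WT and 1.02 and 0.997 RPKM in KI (log2 fold change 0.10), a much narrower difference than that of Col5a1. Over the 11 fibrillar genes, 5 had both KI values above, 2 had both below and 4 overlapped, against 21.2% above and 15.9% below of all genes listed.

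The FACIT collagens, which sit on the surface of fibrils, had 9 members, 3 with both KI values above, 0 with both below and 6 overlapping. Of all genes listed, 21.2% lay above and 15.9% below in this way. Col9a3, a chain of type IX collagen, had 2.52 and 2.94 RPKM in WT and 4.17 and 3.59 RPKM in KI, from 130, 100, 231 and 207 reads. Its KI values lay above, with a ratio of 1.42 (log2 fold change 0.39, SE 0.11, unadjusted p = 0.0203, adjusted p = 0.468, limma). Exons of Col9a3 share 234 bp, 6.07% of their length, with Tcfl5 on the opposite strand, and reads there cannot be told apart because the library kit did not mark strand. Col9a2, its partner chain, had 0.867 and 0.586 RPKM in WT and 0.876 and 1.36 RPKM in KI, and the ratio of Col9a3 to Col9a2 overlapped between groups, at 2.90 and 5.02 in WT and 4.76 and 2.64 in KI (exact permutation p = 0.667). Col22a1, which marks tissue junctions, had 0.373 and 0.492 RPKM in WT and 0.657 and 0.705 RPKM in KI (log2 fold change 0.23). Col20a1 (3.37 to 3.92 RPKM), Col16a1 (2.15 to 2.74 RPKM) and the neuronal Col19a1 (1.17 to 1.51 RPKM) had overlapping groups and log2 fold changes of 0.04 to 0.05.

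Among the transmembrane collagens, Col25a1, a neuronal collagen first known from amyloid plaques, was the third most abundant collagen gene by RPKM. It had 8.39 and 8.06 RPKM in WT and 8.75 and 8.62 RPKM in KI, a narrow difference with no overlap (log2 fold change 0.07, adjusted p = 0.756 in limma). Col23a1 had 1.77 and 1.5 RPKM in WT and 1.82 and 2.52 RPKM in KI (log2 fold change 0.26, adjusted p = 0.627 in limma), where KI replicate 1 was close to WT replicate 1. Col13a1 was at most 0.408 RPKM, and Col17a1 was listed in 1 sample, KI replicate 1, at 0.0482 RPKM.

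The remaining genes were low. Col26a1 had 0.574 and 0.407 RPKM in WT and 0.952 and 0.836 RPKM in KI, a ratio of 1.82 (log2 fold change 0.35, unadjusted p = 0.0518, adjusted p = 0.516, limma). Col7a1, of anchoring fibrils in skin, had 0.584 and 0.610 RPKM in WT and 0.818 and 0.931 RPKM in KI, also with no overlap (log2 fold change 0.23, adjusted p = 0.594 in limma). Col10a1, a cartilage collagen, was at 0 in both WT samples and had 0.0222 and 0.0427 RPKM in KI, which is 1 and 2 reads. Of the multiplexins, whose ends release anti-angiogenic fragments, Col18a1 overlapped at 0.543 to 0.842 RPKM. Col15a1, the other multiplexin, had 1.31 and 1.41 RPKM in WT and 3.12 and 1.35 RPKM in KI, so that KI replicate 1 stood apart from the other 3 samples. That sample also stood apart in the choroid plexus markers, and a link between these was not tested.

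KI replicate 1 held the highest value of more collagen genes than the other samples did. Of the 28 tested, it was highest for 15, KI replicate 2 for 9, WT replicate 2 for 3 and WT replicate 1 for 1, while over all genes tested KI replicate 1 was highest for 26.54%. Of all 44 members, it was highest for 23. It exceeded the next highest sample 2.21-fold for Col15a1 and 1.66-fold for Col6a3. Of genes picked after their values were seen, it did so 2.19-fold for Col24a1, 2.16-fold for Col12a1 and 2.08-fold for Col8a1. Without KI replicate 1, the log2 fold change of Col15a1 was -0.01, that of Col6a3 was 0.30, that of Col5a1 0.39, that of Col11a1 0.35, that of Col9a3 0.30, that of Col6a2 0.46, that of Col6a1 -0.53 and that of Col4a2 0.05. Those of Col26a1, Col7a1, Col23a1, Col22a1 and Col9a2 were 0.30, 0.27, 0.42, 0.25 and 0.46, that of Col11a2 was -0.24, and those of Col4a1, Col25a1, Col5a2 and Col1a2 were 0.088, 0.061, 0.086 and 0.037. The log2 difference of the ratio to Col6a1 was then 1.41 for Col6a2 and 1.25 for Col6a3, against 1.24 and 1.5 with it. The second also depended on the WT samples, at 0.93 without WT replicate 2 and 2.08 without WT replicate 1. With KI replicate 1 left out, 19 of the 28 tested genes had their remaining KI value above those of WT, against 39.6% of all genes tested, and 6 had it below, against 30.5%.

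**Figure D4:**
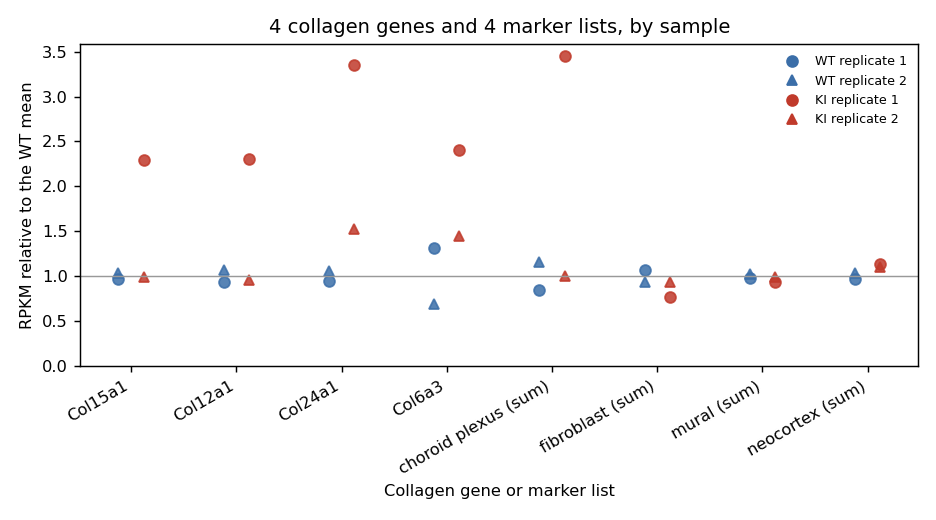
RPKM of 4 collagen genes and summed RPKM of 4 marker lists in each sample, divided by the WT mean (line at 1). KI replicate 1 lies above the other 3 samples for Col15a1 (3.12 RPKM against 1.31 to 1.41), Col12a1, Col24a1, Col6a3 and the choroid plexus sum (63.0 RPKM against 15.4 to 21.1). It is the lowest for the fibroblast and mural sums, for the fibroblast sum through Dcn (4.24 RPKM against 9.02 to 11.8).

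Markers of other cell types and regions also differed between samples, and their part in the result was not tested. Counts of markers above or below are those with no overlap between groups, which over all genes tested were 24.0% and 18.1%. The summed RPKM of 9 choroid plexus markers, all listed, was 15.4 and 21.1 in WT and 63.0 and 18.2 in KI. Ttr made up most of it, with 8.13, 13.8, 51.3 and 8.89 RPKM, and Kcnj13 was at 0 in WT replicate 2. Of these 9 markers, 4 lay above in both KI samples and 0 below. For the 10 fibroblast markers of vessels and meninges the sum was 27.3 and 23.7 RPKM in WT and 19.4 and 23.7 RPKM in KI, with 1 marker above and 2 below in both KI samples. Dcn, the marker of highest mean, had 11.8 and 9.02 RPKM in WT and 4.24 and 10.3 RPKM in KI. The low sum of KI replicate 1 rests on this gene. The 10 mural cell markers summed to 70.6 to 76.5 RPKM, with 1 above and 3 below, the smooth muscle genes Acta2, Tagln and Myh11. The 10 endothelium markers summed to 68.8 and 76.2 RPKM in WT and 78.0 and 85.6 RPKM in KI, with 4 above and 3 below. Among the neocortex markers 4 of 6 lay above in both KI samples and 0 below, and sums were 49.0 and 51.9 RPKM in WT and 57.0 and 55.3 RPKM in KI. Thalamus markers summed to 11.7 and 10.6 RPKM in WT and 17.6 and 14.6 RPKM in KI, and striatum markers to 20.2 and 19.0 RPKM in WT and 24.4 RPKM in each KI sample, with 3 above and 2 below of 6 thalamus markers and 4 above and 1 below of 6 striatum markers. The 10 hippocampal markers summed to 310 to 334 RPKM, so markers of the labelled tissue were present, with 2 above, 3 below and 5 overlapping. Sums were 23.8 to 32.5 RPKM for ependyma, 806 to 1066 RPKM for oligodendrocytes, 125 to 144 RPKM for microglia and 453 to 490 RPKM for astrocytes, with 1 above and 1 below of 6 ependyma markers, none of 8 oligodendrocyte markers apart, 4 above and 1 below of 7 microglia markers, and 3 above and 1 below of 6 astrocyte markers.

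The genes that make, process, bind and degrade collagen were read in the same comparison. Of 64 genes on 5 lists, 54 were tested, 0 passed the thresholds in limma, 2 were higher at an unadjusted p under 0.05 and 0 were lower, against 6.30% and 3.33% of all genes tested. Among the 54, KI exceeded WT with no overlap in 16 and lay under it in 8, against 24.0% and 18.1% of all genes tested, and their median log2 fold change was 0.03. Sparc, a secreted glycoprotein that binds collagen, had 53.9 and 48.3 RPKM in WT and 62.2 and 59.0 RPKM in KI (log2 fold change 0.24, SE 0.07, unadjusted p = 0.0208, adjusted p = 0.470, limma). Plod3, a lysyl hydroxylase of collagen chains, had 8.54 and 8.70 RPKM in WT and 10.1 and 9.84 RPKM in KI (log2 fold change 0.19, SE 0.06, unadjusted p = 0.0279, adjusted p = 0.489, limma).

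By role, to be read against the same 24.0% and 18.1% of all genes, both KI values lay above in 7 and below in 5 of the 20 tested genes of hydroxylation, folding and secretion, led in level by the prolyl isomerase Ppib at 77.6 to 83.7 RPKM. Of the 9 tested genes of procollagen processing and cross-linking 1 lay above and 2 below, led by the procollagen proteinase Bmp1 at 24.3 to 26.4 RPKM. The 6 collagen receptors tested all overlapped, among them Ddr1, a receptor tyrosine kinase, with 14.4 and 16.3 RPKM in WT and 15.5 and 12.3 RPKM in KI. Of the 8 collagenases and inhibitors 2 lay above and 0 below, and Timp2, an inhibitor of these proteases, was highest at 47.0 to 62.7 RPKM. Of the 11 basement membrane partners, laminins, nidogens, perlecan, agrin and Sparc, 6 lay above and 1 below.

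Kdm1a lies on chromosome 4, where the KI allele was made, and 5 collagen genes lie on that chromosome. Col16a1 is 6.45 Mb from it, Col8a2 10.2 Mb, Col9a2 15.5 Mb, Col27a1 73.2 Mb and Col15a1 89.2 Mb. Of these, Col9a2 lay above and Col8a2 below in both KI samples, and the groups of the other 3 overlapped. The shares over all genes listed were 21.2% above and 15.9% below. The order of Col9a2 is narrow, at 0.876 RPKM for KI replicate 1 against 0.867 RPKM for WT replicate 1. That of Col8a2 depends on small read numbers, 33, 18, 25 and 20 by sample. An effect of distance from Kdm1a was not tested.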

How the data were processed

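Poly(A) RNA from the hippocampus of WT mice (2 samples) and Lsd1 KI mice (2 samples) was sequenced with a kit that does not mark strand. The authors aligned read pairs with GSNAP to mm10, kept uniquely and properly mapped pairs, and assigned them to genes of Ensembl release 74 (the counting tool is not given in the sources used here). The values the authors deposited are RPKM, 1 file per sample. A gene not listed in a sample was given 0.

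The 18436 genes that reached 0.5 RPKM in 2 or more samples were tested on log2(RPKM + 1) with limma (version 3.58.1, R version 4.3.3), fitting a trend of variance on level and adjusting by Benjamini-Hochberg over all of them. A call needed an adjusted p under 0.1 and 1.2-fold. The other computations used Python 3.11.15 with pandas 2.3.3 and numpy 2.4.6. A pseudocount of 1 understates changes of low genes. The limma code was tested on simulated data. Mapped reads were worked out from whole-read steps with GENCODE M21 exon lengths (GRCm38), within a tolerance of 0.05 for 11601 of 19886 genes and for 28 of the 44 collagen genes. These reads state precision only, cover counting error only, and may be single reads or pairs. RPKM was taken to divide by the union of a gene's exons. In GENCODE M21 this union was 2.94 times the longest coding transcript for Col26a1 and 2.32 times for Col1a2. For Col25a1 it was 1.93 times and for Col6a2 1.79 times. The level of such a gene is understated if that transcript is the main one. For Col4a1 the union was 1.13 times and for Col6a1 1.07 times. The reads of Col26a1, Col1a2, Col25a1 and Col4a1 did not come out whole. The exon length the authors used may therefore differ for them, and the size of any understatement is not known. Ranks between genes and the level of a chain ratio therefore depend on the length used. Upstream sequences are RefSeq windows (GRCm38.p6). No whole genome and no protein sequences were used.

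Named were collagen genes with a mean of at least 1 RPKM, tested ones whose groups do not overlap and those of a chain ratio, and pathway genes with an unadjusted p under 0.05 or the highest mean of their list. Others are named where a count or group needed it, after their values were seen. The members, lists and tests were chosen with earlier results of these data known. The plan held 11 alternative fits, and each of 4 omitted a sample.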

Additional observations from a re-analysis of the deposited data

How the results depend on the processing

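No collagen gene passed the thresholds under any of the 11 alternative fits, and the smallest adjusted limma p of a collagen gene lay between 0.360 and 0.721 over all fits, with 3 to 8 of them at an unadjusted p under 0.05. The replicate block, with the replicate number as a term, gave 0 collagen genes and 0 genes in all, 6 collagen genes at an unadjusted p under 0.05 and a smallest adjusted p of 0.464. Deviations of samples with the same number correlated at r = -0.025 over 18436 genes. This value rests on 2 samples per group and cannot show whether samples of the same number were handled together. Without the mean-variance trend, 20 of all genes passed. Collagen genes with both KI values above numbered 9 of 16 with a mean of at least 1 RPKM (15 of 28 before). Those below numbered 5 of 44 with no filter (2 of 28 before), and the 5 include Col8a2, Col4a6 and Col3a1, which the filter had left out. Of all genes, 15.9% lay below with no filter and 18.1% before. The share of all genes above at a mean of at least 1 RPKM was not computed. These counts are over different sets of genes. The median log2 fold change of the collagen genes was 0.14 with a pseudocount of 0.1, 0.051 with no filter, 0.12 with a mean of at least 1 RPKM and 0.075 after quantile normalization, which also turned Col19a1 to -0.010 and Col1a2 to -0.0094. Adding 1 RPKM before the ratio turned the log2 difference of Col9a3/Col9a2 from -0.11 to 0.10, and lowered that of Col1a2/Col1a1 from 0.46 to 0.18, with groups that then overlapped, and the cause was not tested.

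With each sample left out, the count below ran from 2 to 6 (6 without KI replicate 1, 4 without WT replicate 1), the count above from 16 to 20, and the median log2 fold change from 0.087 to 0.15. With fewer values per group, groups separate more readily in any gene. Without KI replicate 1, 39.6% of all genes tested lay above and 30.5% below, against 24.0% and 18.1% with all samples. Shares over all genes were not computed for the other omissions. The log2 ratio difference ran from -0.041 to 0.14 for Col4a2/Col4a1, from -0.53 to 0.32 for Col9a3/Col9a2, from 0.19 (without KI replicate 2) to 0.72 for Col1a2/Col1a1, from 1.06 to 1.41 for Col6a2/Col6a1, from 0.93 (without WT replicate 2) to 2.08 for Col6a3/Col6a1 and from -0.048 to 0.28 for Col5a1/Col11a1. Log2 fold changes ran from -0.0081 to 0.80 for Col15a1, -0.045 to 0.15 for Col16a1, -0.067 to 0.15 for Col19a1, -0.036 to 0.14 for Col20a1 and -0.25 to 0.39 for Col6a4. The other 18 of the 23 named genes kept their direction with each sample left out. Under the settings with all 4 samples, 152 of 154 fold changes of named genes kept theirs. WT replicate 2 was the shallowest, and for genes under 0.5 RPKM an order can rest on a few reads. Col10a1, for example, had 1 and 2 reads in KI replicates 1 and 2.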
